A study of Mus musculus with 48 samples.

Results

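The mammary gland of heat-exposed lactating mice was compared with that of control dams, 8 heat libraries against 8 control libraries. The genes described are those with a mean of at least 1 FPKM over these 16 libraries, which kept 12587 of the 58913 genes in the tables. FPKM relate fragments to the length of a gene and to the depth of a library, so levels of different genes are given per length.

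The study sequenced RNA from mammary gland, pituitary and hypothalamus of ICR mice, an outbred laboratory strain, in 48 libraries. Heat dams were exposed in their cages to 36 °C in a climate incubator, and control dams to 25 °C. Both groups were kept at 55% relative humidity and were 10 weeks old, at day 13 of lactation, when milk output is near its peak. Tissue was taken directly after the treatment, for a time that the labels do not give, and the gland was the left inguinal number 4. This gland holds the inguinal fat pad, so its RNA comes from milk-secreting cells and from fat, vessels, immune cells and nerves together. Whether every library held the same parts of the gland was not tested. In such bulk tissue, fewer cells of a type and less RNA per cell cannot be told apart.

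Heat unfolds proteins, and cells answer through HSF1, a transcription factor that binds heat shock elements and switches on chaperone genes. HSP70 and HSP110 proteins hold unfolded chains, HSP40 proteins hand chains to them, HSP90 matures signalling proteins, and small heat shock proteins prevent clumping. The lactating gland is one of the most active secretory tissues of the body, and it makes caseins, whey proteins, lactose and milk fat under the control of prolactin and STAT5. Dairy animals give less milk in hot weather. Stress also raises glucocorticoids, steroid hormones that act through the receptor encoded by Nr3c1 and that the gland needs to keep secreting.

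Depth, rounded, was 11590000 to 17810000 fragments in heat libraries and 13200000 to 16160000 in control libraries. The tissue label held: the caseins made up 43.2 to 49.0% of summed FPKM in heat libraries and 40.8 to 53.8% in control libraries. The libraries fell into separate classes by lymphocyte genes. The mean log2 level of T and B cell markers was 2.65 to 3.40 in heat libraries 4, 5, 6 and 8 and 3.04 in control library 5, and 0.248 to 0.349 in the other 11 libraries. The summed level of the 16 T cell markers was 69.7 to 144 FPKM in those 5 libraries and 1.45 to 2.43 FPKM in the other 11. That of the 10 B cell markers was 51.3 to 83.1 FPKM against 2.35 to 5.14 FPKM. Markers of lymph node stroma were 46.4 to 80.9 FPKM in those 5 libraries and 3.34 to 22.9 FPKM in the others, with Pdpn at 0 in all 16. Lymphocyte-rich libraries were therefore 4 of 8 in the heat group and 1 of 8 in the control group. Many changes below are also given in the 11 libraries low in lymphocyte genes, which are 4 heat and 7 control libraries. The 4 are heat libraries 1, 2, 3 and 7, and the 7 are all controls but library 5. This subset thus differs from all 16 in library numbers and group sizes too. A weaker change or a lost call in it cannot be assigned to lymphocyte genes alone. Of the 82 named genes past an adjusted p of 0.05 in all 16 libraries, 18 also passed in those 11. The part of lymphocyte RNA in the other differences was not tested beyond these values.

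The promoter windows of 5 genes that rose are shown because they hold the element that heat shock factors bind, or a glucocorticoid receptor site, in its exact letters. They are RefSeq sequences of build GRCm38.p6, 250 bases before to 50 bases after the annotated start, written 5′ to 3′ on the gene's strand. Capitals mark the motif. The motif was GAANNTTCNNGAA, 3 inverted heat shock units, in Hsph1, Hspe1 and Chordc1, its 2-unit core GAANNTTC in Hspa1b, and the receptor core GNACANNNTGTNC in Txnip. The windows are Hspa1b at chr17:34959189-34959488 (minus strand), Hsph1 at chr5:149636287-149636586 (minus), Hspe1 at chr1:55087898-55088197 (plus), Chordc1 at chr9:18292017-18292316 (plus) and Txnip at chr3:96557707-96558006 (plus).
Hspa1b: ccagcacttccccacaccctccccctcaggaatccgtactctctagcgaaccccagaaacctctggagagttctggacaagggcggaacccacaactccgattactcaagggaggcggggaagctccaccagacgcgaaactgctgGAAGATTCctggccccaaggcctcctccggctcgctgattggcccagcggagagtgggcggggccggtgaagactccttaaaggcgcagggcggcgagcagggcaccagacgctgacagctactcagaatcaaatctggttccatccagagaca
Hsph1: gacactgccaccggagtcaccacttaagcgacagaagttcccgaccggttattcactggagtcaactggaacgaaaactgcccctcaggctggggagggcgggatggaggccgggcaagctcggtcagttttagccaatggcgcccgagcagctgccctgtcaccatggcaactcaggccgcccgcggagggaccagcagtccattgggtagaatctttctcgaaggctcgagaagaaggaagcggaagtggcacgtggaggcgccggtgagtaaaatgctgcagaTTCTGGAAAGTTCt
Hspe1: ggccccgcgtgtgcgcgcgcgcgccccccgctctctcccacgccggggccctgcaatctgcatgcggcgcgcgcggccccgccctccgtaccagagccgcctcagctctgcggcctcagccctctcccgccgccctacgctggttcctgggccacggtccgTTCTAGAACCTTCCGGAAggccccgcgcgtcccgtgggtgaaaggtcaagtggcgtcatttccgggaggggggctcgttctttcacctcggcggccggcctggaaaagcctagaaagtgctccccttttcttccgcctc
Chordc1: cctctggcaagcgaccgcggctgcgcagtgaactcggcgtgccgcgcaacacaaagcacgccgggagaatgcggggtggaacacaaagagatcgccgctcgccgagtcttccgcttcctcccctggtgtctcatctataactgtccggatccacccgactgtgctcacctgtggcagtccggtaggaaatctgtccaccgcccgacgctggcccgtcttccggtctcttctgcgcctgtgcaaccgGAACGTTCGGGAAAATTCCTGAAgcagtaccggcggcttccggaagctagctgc
Txnip: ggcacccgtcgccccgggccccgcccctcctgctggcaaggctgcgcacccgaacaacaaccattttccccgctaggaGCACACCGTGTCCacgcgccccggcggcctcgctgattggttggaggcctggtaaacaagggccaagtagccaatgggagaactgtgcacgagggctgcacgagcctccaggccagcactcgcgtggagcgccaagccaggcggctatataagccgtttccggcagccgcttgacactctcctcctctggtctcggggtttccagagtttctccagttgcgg
In Chordc1 3 copies of the motif overlap across the annotated start, the first beginning 4 bases before it. In Hspe1, which shares its promoter head to head with Hspd1, 2 copies overlap, the first beginning 89 bases before the start. The Hsph1 copy begins 36 bases after the start, inside the transcribed part, and the Hspa1b core begins 104 bases before it. The windows of Hspa1b and its neighbour Hspa1a are identical at 296 of 300 positions.

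Of the 12587 tested genes, 8340 had a RefSeq promoter window. The 3-unit motif, searched on both strands, lay in the windows of 48 genes (0.576%). Among genes with a window, it was held by 9 of 246 that rose (3.66%) and by 0 of 230 that fell. The holders among the genes that rose were Chordc1, Deaf1, Hspd1, Hspe1, Hsph1, Phrf1, Slc29a1, Slco2b1 and Tra2b. Hspd1 and Hspe1 hold the same copies, read from opposite strands. The 2-unit core, which every 3-unit match contains and which reads the same on both strands, lay in 6.73% of all windows. Its share was 11.8% among genes with a window that rose and 3.91% among those that fell. It was 26.8% among the 41 genes with a window that rose by at least 1 log2 unit. Those 41 included Hspa1a, Hspa1b, Hspb1, Bag3, Dnaja1 and Dnaja4 among the holders. Dnajb1, which rose by 2.74, held neither the 3-unit motif nor its core in its windows. The glucocorticoid receptor core lay in 0.396% of windows. It was held by 2 of 246 genes that rose (0.813%), Txnip and Clic3, and by 1 of 230 that fell (0.435%), Fem1a. The windows of Tsc22d3, Bcl6 and Ddit4 did not hold these letters. These matches describe letters in the windows, and no binding was measured here.

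At an adjusted p under 0.05 (limma, Benjamini-Hochberg), 668 genes differed between heat and control libraries, which is 5.31% of those tested. Of these, 357 were higher after heat (2.84%) and 311 were lower (2.47%). The rises were larger than the falls: 82 genes rose and 22 fell by at least 1 log2 unit. Of the 668, 36 were loci outside the reference annotation, and 574 had a symbol that the naming rule allowed; the largest rises and falls given are among those 574. Each change given is the difference in mean log2(FPKM + 1), positive where heat libraries were higher, with ± its standard error. The added 1 generally makes it smaller than the log2 ratio of FPKM, and most so for genes of a few FPKM or less. All genes tested had a median change of -0.01. In 129 genes (1.02%) the 8 heat and the 8 control libraries did not overlap at all. With the lymphocyte marker level as a covariate 296 genes were called, 274 of them among the 668, and in the 11 lymphocyte-low libraries 38 were called, 37 of them among the 668. All 668 kept their sign in those 11 libraries, and 647 kept at least 0.5 of their change, but the 668 were chosen with these same libraries included. Without heat library 4 the count was 412, and without heat library 5 it was 439. Libraries numbered 4 to 8 alone gave 365 calls, and those numbered 1 to 3 alone gave 0 by limma. In the libraries numbered 1 to 3, 1569 genes had an unadjusted p under 0.05.

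The largest rises were in chaperone genes. In 5 lists of cytosolic and mitochondrial chaperones 63 genes were listed and 58 tested. Of these 24 were higher and 0 lower, against 2.84% higher and 2.47% lower among all genes. The 24 had a median change of 1.48, and 0.94 in the 11 lymphocyte-low libraries. The 34 members that did not pass had changes of -0.38 to 0.52. All but 3 of the 24 stayed past the threshold with the lymphocyte covariate (21 genes), and 6 did so in the 11 libraries.

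Of 11 tested HSP70 and HSP110 genes 5 rose. Hspa1b (ENSMUSG00000090877), the heat-inducible HSP70, had 35.8 FPKM in the lowest heat library, a median of 431 and 856 in the highest, against 1.70, 6.62 and 9.66 FPKM in control libraries. The groups were far apart, with every heat library above every control library. Mean FPKM was 67.6 times as high after heat, and the change was 5.50 ± 0.54 (SE) with adjusted p = 5.02e-05. In the 11 libraries it was 4.67 with adjusted p = 0.021. Its neighbour Hspa1a, a nearly identical HSP70 gene, had 4.58, 104 and 189 FPKM against 0.321, 0.889 and 2.67 FPKM. It rose by 4.72 ± 0.63 (adjusted p = 0.00055), and by 3.87 in the 11 libraries with adjusted p = 0.059, but the division of fragments between these copies is uncertain, and 19.0% of Hspa1a exon bases lie in another annotated gene. Hsph1, the HSP110 that acts as exchange factor for HSP70, had 23.4, 127 and 431 FPKM in heat libraries against 5.92, 8.59 and 22.7 FPKM in control libraries. These groups were separate, with heat library 3 only just above the highest control library. The change was 3.61 ± 0.47, with adjusted p = 0.000502, and 2.68 in the 11 libraries. Hspa8, the constitutive HSP70, was abundant in both groups, with 156, 341 and 793 FPKM against 64.4, 80.9 and 175 FPKM. Only control library 6 reached into the heat range, and the change was 2.04 ± 0.28 (adjusted p = 0.00074), and 1.54 in the 11 libraries with adjusted p = 0.056. Hspa4l, an HSP110 relative, rose by 0.89. The mitochondrial Hspa9 changed by 0.07 and Hspa14 by -0.03, and neither passed.

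**Figure D1:**
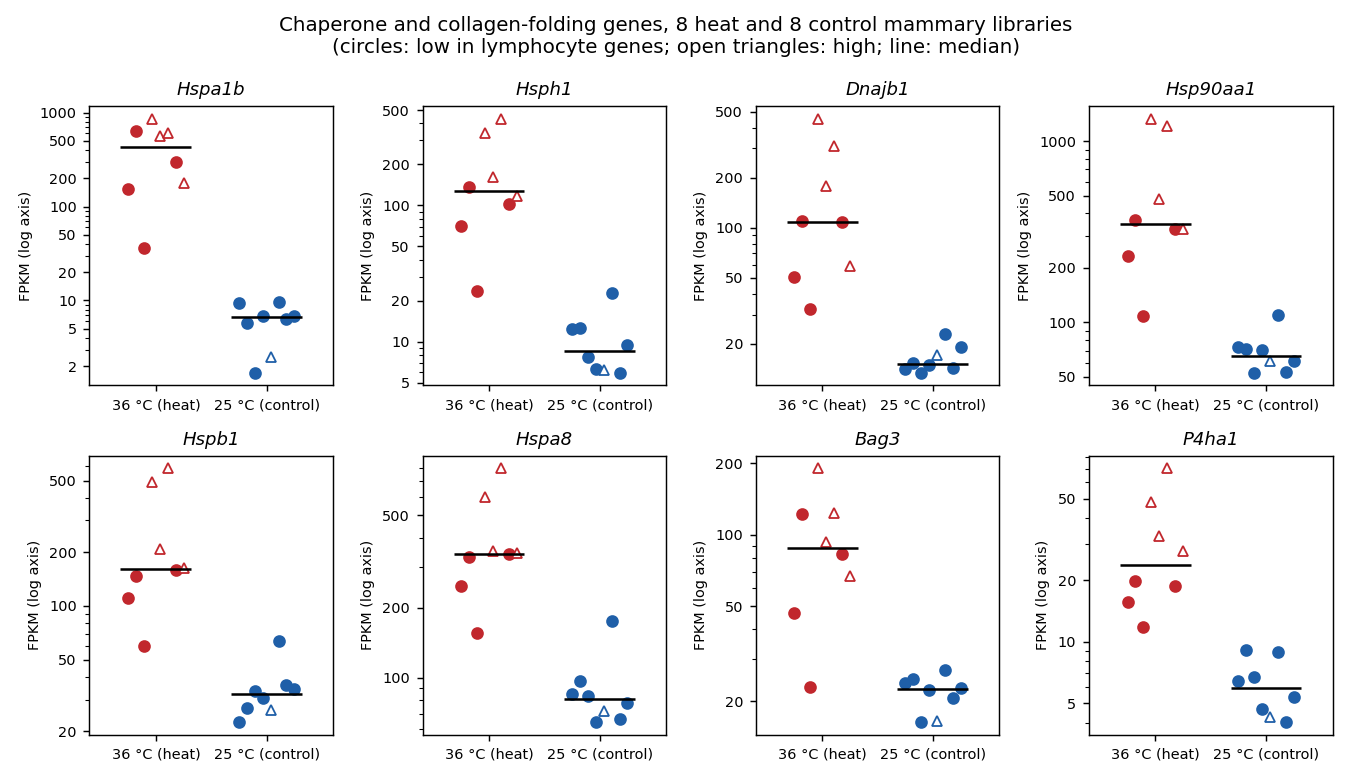
FPKM (log axes) of 8 genes in each of the 8 heat libraries (left, red) and the 8 control libraries (right, blue), with open triangles for the 5 libraries high in lymphocyte genes and a line at the median. Heat library 3 is the lowest heat library in every panel, and the highest heat point is library 4 or 6.

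Among HSP40 co-chaperones 4 of 12 tested genes rose. Dnajb1, the main HSP40 partner of inducible HSP70, had 32.2, 109 and 451 FPKM after heat against 13.4, 15.1 and 23.0 FPKM, with no overlap. Its change was 2.74 ± 0.43 (adjusted p = 0.00186) and 1.98 in the 11 libraries. Dnaja4 had 2.77, 8.82 and 28.5 FPKM against 0.899, 1.30 and 2.36 FPKM and rose by 2.03, with 44.1% of its exon bases in another annotated gene. Dnaja1, the farnesylated HSP40 of the cytosol, rose by 1.93 and Dnajb4 by 0.87. Dnajb13, an HSP40 of cilia and sperm tails that was on no list, was among the 10 smallest adjusted p. It had 9.01, 14.5 and 20.7 FPKM in heat libraries against 2.57, 3.51 and 6.03 FPKM in control libraries and rose by 1.66 ± 0.19 (adjusted p = 0.000157). Its change in the 11 libraries, 1.58, was close to that in all 16.

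The HSP90 list had the highest count of the chaperone lists, 9 of 16 tested genes, with a list median of 0.72. Hsp90aa1, the inducible HSP90, had 109, 349 and 1331 FPKM in heat libraries against 52.8, 65.7 and 110 FPKM in control libraries. Heat library 3 fell just below control library 6, and the remaining libraries did not overlap. The change was 2.58 ± 0.40 (adjusted p = 0.00177), and 1.77 in the 11 libraries. Hsp90ab1, the constitutive HSP90, had 257, 580 and 1235 FPKM against 123, 169 and 270 FPKM and rose by 1.76, and by 1.21 in the 11 libraries with adjusted p = 0.056. Some of its co-chaperones rose with it: Stip1, which bridges HSP70 and HSP90, by 1.65, and the ATPase activators Ahsa2 by 1.31 and Ahsa1 by 1.09. Chordc1, an HSP90-binding protein, rose by 1.16 ± 0.17 with adjusted p = 0.0015. It had 12.7, 20.7 and 31.9 FPKM after heat against 5.98, 9.20 and 11.9 FPKM, with no overlap. Cacybp rose by 1.19, the cochaperone p23 gene Ptges3 by 0.84 and the cyclophilin gene Ppid by 0.61. The tested members that did not pass had changes from -0.27 (Unc45a) to 0.52 (Fkbp4, limma adjusted p = 0.0569).

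Small heat shock and BAG genes split: 3 of 9 tested rose, and the list median was -0.01, equal to that of all genes. Hspb1, encoding HSP27, had 59.7, 161 and 586 FPKM in heat libraries against 22.5, 32.1 and 63.9 FPKM in control libraries. Its groups overlapped only through heat library 3 and control library 6, and the change was 2.48 ± 0.38 (adjusted p = 0.00154), and 1.69 in the 11 libraries with adjusted p = 0.047. Bag3, which steers HSP70 clients to autophagy, had 22.8, 88.1 and 190 FPKM against 16.3, 22.5 and 27.1 FPKM and rose by 1.84. Its change in the 11 libraries was 1.33 with adjusted p = 0.19. Hspb8, its small heat shock partner, rose by 0.81. Chaperonins, the folding cages, rose in 3 of 10 tested members. With the lymphocyte covariate 1 of the 10 was called, by the exact Wilcoxon test 1, and in the 11 libraries 0. Hspe1 had 43.8, 89.7 and 195 FPKM against 25.9, 42.7 and 54.5 FPKM, and Hspd1 had 53.1, 106 and 201 FPKM against 44.3, 58.3 and 69.2 FPKM. These partners of the mitochondrial chaperonin rose by 1.21 and 0.99, and Cct7 of the cytosolic cage by 0.46.

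The same libraries were lowest and highest across these genes. In all 24 chaperone genes that rose, heat library 3 had the lowest heat value, and the highest came from heat library 6 in 14 genes and heat library 4 in 10. Control library 6 was the highest control in 16 of the 24. The groups did not overlap in 10 of the 24 genes, against 73 of the 357 genes called higher. Among all tested genes 0.58% were higher without overlap, but the 24 were chosen as called, so the 357 are the closer comparison. In the other 14 they did not overlap once heat library 3 and control library 6 were set aside. Within heat libraries Hsph1 ran from 118 to 431 FPKM in the 4 libraries rich in lymphocyte genes and from 23.4 to 136 FPKM in the other 4. Control library 5, also rich in lymphocyte genes, had 6.24 FPKM of Hsph1.

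Of 8 tested genes that fold collagen 4 rose and 0 fell, against 2.84% higher among all genes. P4ha1, a prolyl hydroxylase subunit, had 11.8, 23.7 and 70.3 FPKM in heat libraries against 4.03, 5.90 and 9.11 FPKM in control libraries, with no overlap. It rose by 1.97 ± 0.30 (adjusted p = 0.00154), and by 1.25 in the 11 libraries with adjusted p = 0.037. Serpinh1, encoding the collagen chaperone HSP47, rose by 0.94, Plod1, a lysyl hydroxylase, by 0.86, and P4ha2 by 0.65. Of 26 tested chaperone and degradation genes of the endoplasmic reticulum 1 rose and 0 fell, 3.85% of the list against 5.31% of all genes. At an unadjusted p under 0.05 there were 7, and 19 of the 26 had a positive change. That gene was Herpud1, which helps remove misfolded proteins from the reticulum, with 13.9, 35.1 and 42.8 FPKM against 10.8, 13.0 and 16.4 FPKM. It changed by 1.16 ± 0.18 (adjusted p = 0.00172), with heat library 3 far below the other heat libraries. Hspa5, encoding the reticulum chaperone BiP, had a median of 231 FPKM after heat against 200 FPKM, a change of 0.17 with adjusted p = 0.536.

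Transcripts of heat shock factors did not pass. Hsf1 had a median of 4.95 FPKM in heat libraries and 4.91 FPKM in control libraries (change 0.06, adjusted p = 0.753), and Hsf2 was under the filter. None of the 37 tested proteasome genes passed (2 at an unadjusted p under 0.05), with a median of -0.04. In the integrated stress response list 3 of 22 tested genes rose and 1 fell, 18.2% against 5.31% called among all genes. Ddit3, encoding the stress factor CHOP, had 6.39, 8.14 and 13.2 FPKM against 2.56, 5.00 and 6.13 FPKM and rose by 0.79. Nupr1, a stress-induced chromatin protein, rose by 0.68, and Gpt2, a mitochondrial alanine transaminase, fell by 0.80. Cold-inducible Cirbp changed by -0.70 ± 0.21 with adjusted p = 0.059, and Rbm3 by 0.17. Of the 6 tested genes in their list, which also holds CLK kinases, Clk4 alone passed in all 16 libraries, with a rise of 0.46. With the lymphocyte covariate 1 of the 6 was called lower and 0 higher. Pituitary and hypothalamus, each fitted alone, also had 1 lower and 0 higher.

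Of 19 glucocorticoid target genes listed and tested, 6 rose and 0 fell, against 2.84% higher among all genes, and 13 did not pass. The list median was 0.42, and 3 of the 6 passed in the 11 libraries. Tsc22d3, encoding the steroid-induced leucine zipper GILZ, had 59.7, 97.8 and 163 FPKM in heat libraries against 9.65, 18.3 and 31.9 FPKM in control libraries. All heat libraries stood above all control libraries, and the change was 2.29 ± 0.25 (adjusted p = 0.000152). In the 11 libraries it was 1.98 with adjusted p = 0.037. Bcl6, a transcriptional repressor, had 4.50, 9.69 and 17.5 FPKM after heat against 0.805, 1.46 and 1.95 FPKM, again without overlap. It rose by 2.12 ± 0.19 (adjusted p = 2.45e-05) and by 1.94 in the 11 libraries. Ddit4, an inhibitor of mTORC1 also known as REDD1, had 91.9, 175 and 376 FPKM against 14.8, 31.3 and 82.2 FPKM. It rose by 2.43 ± 0.37 (adjusted p = 0.0015) with no overlap, and its change in the 11 libraries, 2.01, had adjusted p = 0.14. Nfkbia, the inhibitor of NF-kappaB, had 80.4, 106 and 188 FPKM against 44.8, 56.4 and 60.4 FPKM and rose by 1.05. In the 11 libraries its change was 0.76 with adjusted p = 0.023. Fkbp5, an HSP90 cochaperone that restrains the steroid receptor, rose by 0.87, and Per1 by 0.95.

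The remaining listed targets had changes of both signs. Dusp1 changed by 1.07 and Zbtb16 by 0.90, while Sgk1 changed by -0.59 and Mt2 by -0.85, none of which passed. Nr3c1, the receptor gene, had a median of 24.6 FPKM in heat libraries against 29.0 FPKM in control libraries, a change of -0.22 with adjusted p = 0.0779. Per2, a core clock repressor, had 3.97, 17.2 and 24.6 FPKM after heat against 0.884, 4.22 and 12.9 FPKM. Heat library 3 lay inside the control range, and the change was 1.76 ± 0.40 (adjusted p = 0.0187). Of 8 core clock genes Per1 and Per2 passed, both higher. Of 14 clock output genes Nr1d1 alone passed, encoding the repressor REV-ERB alpha, with a rise of 0.87. These calls were 25% and 7.14% of the lists, against 5.31% called among all genes. In the clock output list 8 genes had an unadjusted limma p under 0.05, and 11 of 14 changes were positive, with a median of 0.31. The exact Wilcoxon test called 1 core clock gene and 0 clock output genes. With the lymphocyte covariate Per1 and Per2 no longer passed (adjusted p = 0.11 and 0.074), and Nr1d1 did (0.023). Arntl, the activator of the clock, changed by 0.05. The time of day of sampling is not in the labels.

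**Figure D2:**
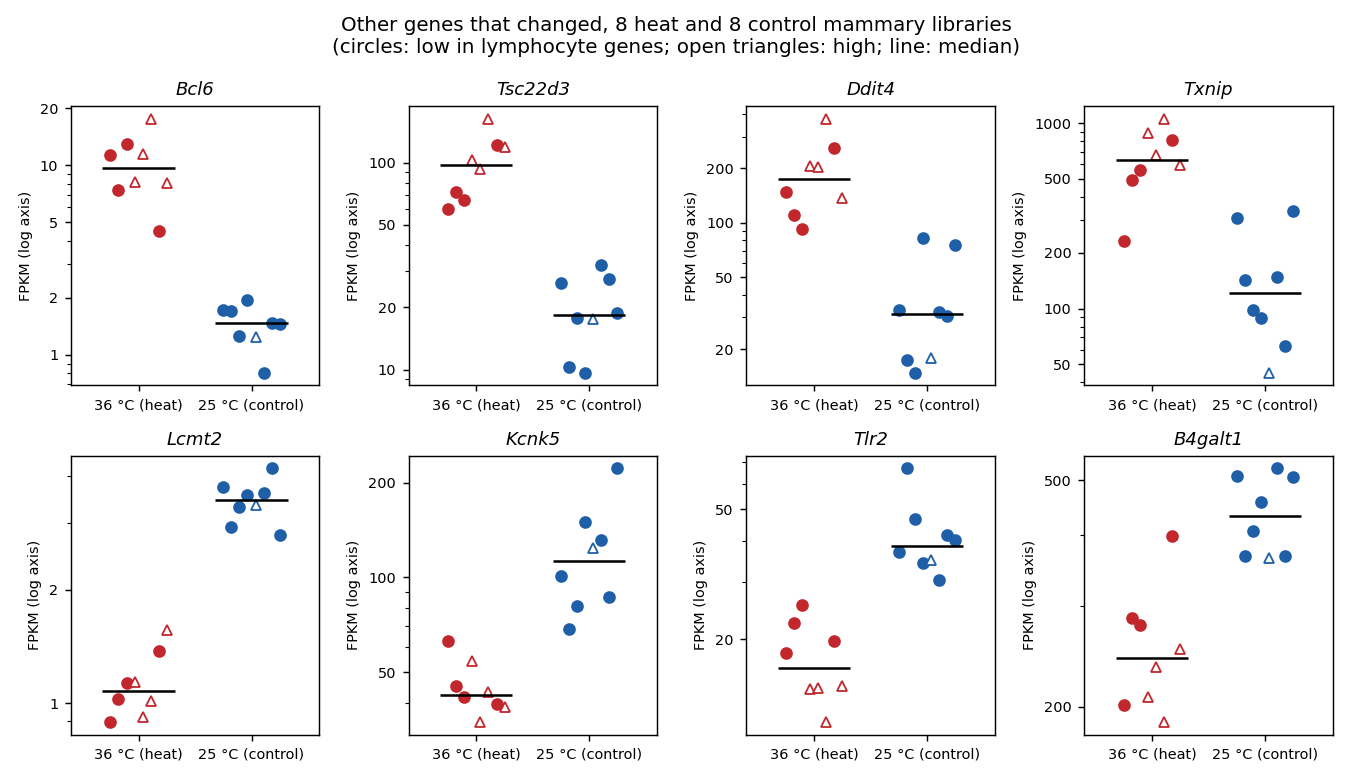
FPKM (log axes) of 8 other genes in the 8 heat libraries (left, red) and the 8 control libraries (right, blue), with open triangles for libraries high in lymphocyte genes and a line at the median. Bcl6, Tsc22d3 and Ddit4 are higher and Lcmt2, Kcnk5 and Tlr2 lower in every heat library than in any control library, while Txnip and B4galt1 overlap.

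In the mRNA decay list 4 of 13 tested genes rose and 1 fell, against 5.31% called among all genes. With the lymphocyte covariate 2 rises were called, Zfp36l2 and Tob2, as was the fall. Zfp36l2, which binds AU-rich messages and sends them to decay, had 33.7, 115 and 263 FPKM in heat libraries against 15.3, 23.0 and 36.0 FPKM in control libraries. Heat library 1 lay just inside the control range, and the change was 2.17 ± 0.33 (adjusted p = 0.00167), and 1.64 in the 11 libraries with adjusted p = 0.14. Its relative Zfp36l1 rose by 0.99, with 55.9% of its exon bases in another gene. The deadenylase adaptors Tob2 and Tob1 rose by 1.16 and 0.67, and Cnot6, a deadenylase subunit, fell by 0.42. Tob2 had 44.4, 55.5 and 65.1 FPKM after heat against 14.4, 27.0 and 35.4 FPKM, with no overlap, and a change of 1.10 in the 11 libraries (adjusted p = 0.036). Among 22 SR and hnRNP splicing factors 3 rose and 1 fell. Tra2a, a splicing activator, had 7.67, 9.16 and 10.8 FPKM against 3.95, 4.76 and 5.75 FPKM, and rose by 0.79 ± 0.09 (adjusted p = 0.000146) without overlap. In the 11 libraries it changed by 0.70 with adjusted p = 0.024. Tra2b, its paralog and a holder of the 3-unit element, rose by 0.60, Hnrnpc by 0.28, and Srsf3 fell by 0.37. Rbm14, an RNA-binding protein of paraspeckles, rose by 0.71.

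Some of the named genes that rose belonged to no list. Txnip, which blocks thioredoxin and glucose uptake, had 232, 636 and 1053 FPKM after heat against 45.1, 121 and 334 FPKM and rose by 2.30 ± 0.40 (adjusted p = 0.00346), and by 1.74 in the 11 libraries with adjusted p = 0.21. Its heat library 1 lay inside the control range, and 19.4% of its exon bases are shared with another gene. Spsb1, an adaptor of a ubiquitin ligase, had 3.64, 18.1 and 43.0 FPKM against 1.63, 2.48 and 3.45 FPKM and rose by 2.24, and by 1.72 in the 11 libraries with adjusted p = 0.097. Banp, a nuclear matrix protein that binds DNA, had a narrow range in each group, 6.59, 9.29 and 11.3 FPKM against 1.51, 2.97 and 3.48 FPKM. It rose by 1.50 ± 0.14 (adjusted p = 2.45e-05) and by 1.28 in the 11 libraries. Irs3, an insulin receptor substrate, rose by 1.15 ± 0.13 (adjusted p = 0.000146), with 1.87, 2.52 and 3.39 FPKM against 0.291, 0.492 and 1.01 FPKM.

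The gene with the smallest adjusted p fell. Lcmt2, an enzyme of transfer RNA modification, had 0.892, 1.08 and 1.57 FPKM in heat libraries against 2.78, 3.45 and 4.18 FPKM in control libraries. The groups were well apart, the change was -1.05 ± 0.09 (adjusted p = 1.22e-05), and it was -1.08 in the 11 libraries. Hmgb3, a chromatin protein of the HMG-box family, had 2.21, 2.97 and 4.41 FPKM against 5.75, 6.44 and 7.68 FPKM and fell by 0.87 ± 0.10 (adjusted p = 0.000196). The linker histone gene H1f0 fell by 0.99, with 27.9, 39.4 and 69.6 FPKM against 67.2, 87.2 and 113 FPKM.

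Kcnk5, a background potassium channel, had 34.7, 42.5 and 63.0 FPKM in heat libraries against 68.5, 113 and 222 FPKM in control libraries. No heat library reached the control range, and the change was -1.33 ± 0.20 (adjusted p = 0.0015). It was -1.24 in the 11 libraries with adjusted p = 0.13, and among libraries numbered 1 to 3 alone -0.74. Kcnj2, an inward rectifier potassium channel, had 2.90, 3.45 and 5.57 FPKM against 4.37, 9.40 and 15.2 FPKM and fell by 1.13. Of 13 tested ion and water channels Kcnk5 alone passed, 7.69% against 5.31% of all genes, and the list median was -0.26. Tlr2, a receptor for bacterial lipoproteins, had 11.1, 16.3 and 25.5 FPKM against 30.3, 38.7 and 66.8 FPKM and fell by 1.21 ± 0.17 (adjusted p = 0.000938). In the 11 libraries its change was -0.93 with adjusted p = 0.082. Adra2c, the alpha-2C adrenergic receptor, fell by 1.07, and Lpar6, a lysophosphatidic acid receptor, by 0.96. Cldn12, a claudin, had 5.66, 6.59 and 8.98 FPKM after heat against 10.0, 12.3 and 21.7 FPKM, without overlap, and fell by 0.93. It was the only 1 of 14 tested tight junction genes to pass, 7.14% of that list.

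Calcium and phosphate transport had 2 falls among 12 tested genes and no rise, against 2.47% lower among all genes. Pthlh, encoding the parathyroid hormone-related protein that the lactating gland secretes to draw calcium from bone, had 20.5, 30.1 and 53.8 FPKM in heat libraries against 44.9, 55.3 and 82.9 FPKM in control libraries. Heat library 7 was the only heat library inside the control range, and the change was -1.0 ± 0.18 (adjusted p = 0.00559). In the 11 libraries it was -1.04 with adjusted p = 0.16. Slc34a2, a sodium-phosphate cotransporter of the epithelium, had 373, 496 and 651 FPKM against 538, 663 and 844 FPKM and fell by 0.43. Its call was lost in 12 of 16 fits that left out 1 library, and with the lymphocyte covariate (adjusted p = 0.14). Pim1, a kinase gene known as a target of cytokine signalling, fell by 0.96, with 25.8, 36.5 and 54.9 FPKM against 45.3, 70.5 and 138 FPKM. The lowest-expressed genes among the 15 largest falls were Olfr279 (change -1.26), Cmtm2a (-1.23), C2cd4b (-1.22) and Prr27 (-1.14). Prr27 stood at 0.0819 to 0.419 FPKM after heat, under the 0.445 FPKM that 3 fragments were worth in the shallowest library, against 0.672 to 3.15 FPKM in control libraries. C2cd4b and Cmtm2a share 47.2 and 44.7% of their exon bases with other genes. The other 2 of the 15, Ogfrl1 and Itprid1, fell by 0.95 and 0.94.

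None of the 5 caseins passed by limma, limma-voom or the exact Wilcoxon test, or at an unadjusted p under 0.05, with changes of -0.08 to 0.05. Csn2, encoding beta-casein, had 52833, 71311 and 82405 FPKM in heat libraries against 53295.5, 73805 and 91624 FPKM in control libraries. Csn1s2a had the highest level, with a median of 93948 FPKM after heat and 100170 FPKM in controls. The caseins held 47.0 ± 1.79% of summed FPKM in heat libraries and 48.6 ± 4.45% in control libraries (SD, n = 8 each), a difference of -1.59 percentage points (exact permutation test, 2-sided, p = 0.362). That difference was -4.48 in libraries numbered 1 to 3, 0.14 in those numbered 4 to 8 and -0.213 in the 11 libraries. Together with whey proteins the share was 50.3 ± 2.21% after heat and 52.0 ± 4.38% in controls (exact permutation p = 0.339). Of 15 tested whey and secreted proteins none passed by any of these tests, 4 had an unadjusted limma p under 0.05, and the list median was -0.19. With a term for libraries numbered 1 to 3, limma called 2 of the 15 lower. Lalba, the alpha-lactalbumin that makes the galactosyltransferase produce lactose, had 4797, 6211 and 9898 FPKM in heat libraries against 5136, 8894 and 14272 FPKM in control libraries. Its change was -0.51 ± 0.21 with adjusted p = 0.165. Wap, whey acidic protein, had 6.34, 38.6 and 67.9 FPKM against 49.7, 74.3 and 122 FPKM, a change of -1.22 ± 0.39 with adjusted p = 0.0801. These Wap values are far under those of the caseins, and Glycam1, another abundant milk gene, was listed at 0 to 0.362 FPKM in heat libraries and 0 to 5.06 FPKM in control libraries. The cause of these low listings was not tested.

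Of the lactose list 1 of 14 tested genes differed, 7.14% against 5.31% of all genes. B4galt1, the galactosyltransferase of lactose synthase, had 188, 244 and 399 FPKM after heat against 365, 432 and 525 FPKM in control libraries. Heat library 7 alone lay in the control range. The gene fell by 0.80 ± 0.14 (adjusted p = 0.00464), and its change in the 11 libraries was -0.65 with adjusted p = 0.2. In milk fat synthesis 1 of 36 tested genes passed, 2.78% against 5.31% of all genes. It was Gpam, which starts glycerolipid assembly, and had 17.4, 18.9 and 26.2 FPKM against 19.1, 28.8 and 33.4 FPKM and fell by 0.47. With the lymphocyte covariate Gpam did not pass (adjusted p = 0.076) and Insig1, a regulator of sterol and lipid synthesis, was called higher (adjusted p = 0.039). Fasn, the fatty acid synthase, had a median of 1571 FPKM after heat and 1403 FPKM in controls (change 0.34, adjusted p = 0.272). Acaca changed by 0.09 and Srebf1, the lipogenic transcription factor, by 0.40. Among 27 tested cholesterol genes Mvk fell, by 0.37. None of 13 tested genes of the prolactin and STAT5 pathway passed, and 1 had an unadjusted p under 0.05. Prlr changed by -0.27, Elf5, an alveolar transcription factor, by -0.27, Stat5a by 0.16 and Stat5b by 0.13.

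In the insulin and IGF list 1 of 19 tested genes rose and 2 fell, against 5.31% called among all genes. None of the 19 was called with the lymphocyte covariate (adjusted p of 0.0504 for Igf1 and Foxo1 and 0.0745 for Irs1) or in the 11 libraries. Igf1 had 2.09, 3.01 and 3.46 FPKM in heat libraries against 2.92, 4.59 and 5.24 FPKM in control libraries and fell by 0.51. Irs1, a substrate of both receptors, fell by 0.59, with 30.9% of its exon bases in another gene, and Foxo1, a transcription factor that insulin shuts out of the nucleus, rose by 0.66. Among 18 hypoxia targets P4ha1 and Pfkfb3 (0.75) rose, and Ndrg1 fell by 0.90. In the antioxidant list Hmox1, heme oxygenase, rose by 0.83 and Srxn1 fell by 0.54, of 22 tested. Amino acid transporters had 1 rise, Slc1a5 by 0.52, and 1 fall, Slc38a7 by 0.44, of 18 tested. The involution list had Timp3 alone higher, by 0.63, of 21 tested, and neither Stat3 (adjusted p = 0.997) nor Igfbp5 (change -0.44) passed. Of 17 immediate early genes Fos alone passed, at 0.96. Mcm7 rose by 0.51 among 12 proliferation genes. Lists with no member past the threshold were cytosolic ribosomal proteins (80 tested, median 0.13), nuclear-encoded respiratory chain genes (78, median 0.04), mitochondrially encoded genes (13, median -0.13), p53 targets and BCL2 family (19), interferon response (14), hormone receptors (13), zinc handling (9), BMP and ID genes (9, median -0.49) and nuclear long non-coding RNAs (9). At an unadjusted p under 0.05 they held 2, 2, 1, 5, 1, 4, 3, 4 and 0 genes in that order. The exact Wilcoxon test called 1 gene of the p53 and BCL2 list, and limma-voom called none in these lists. The share of summed FPKM from ribosomal protein genes was 3.60 ± 0.455% after heat and 3.29 ± 0.262% in controls. That of mitochondrially encoded genes was 3.30 ± 0.647% after heat and 3.61 ± 0.249% in controls (SD, n = 8 each; exact permutation p = 0.113 and 0.227, both 0.362 after adjustment over 4 shares). Without heat library 1, whose mitochondrially encoded share was the highest of the heat libraries at 4.81%, the difference of that share was -0.529 percentage points and passed (adjusted exact permutation p = 0.00932).

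**Figure D3:**
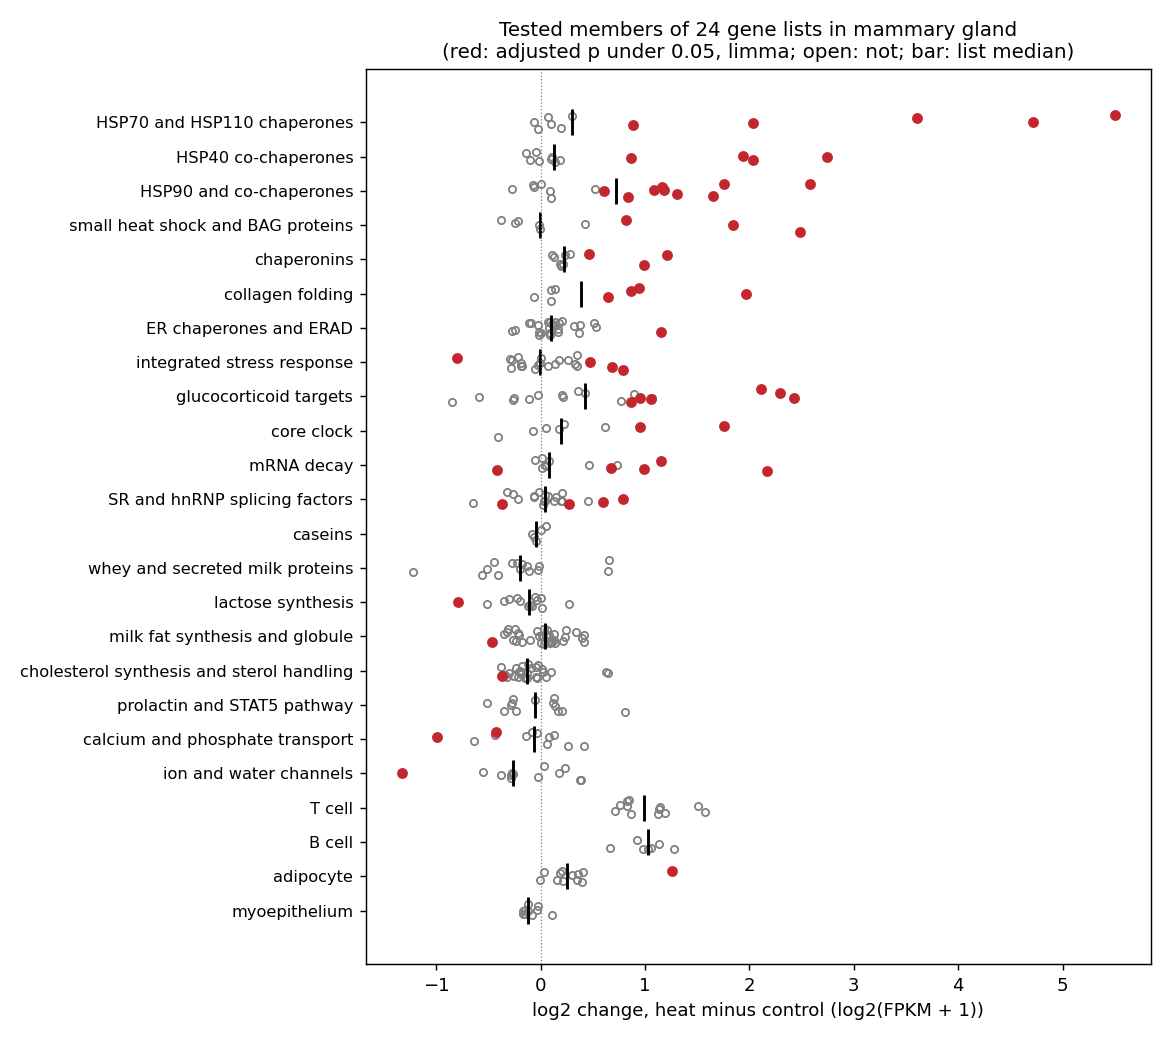
Log2 change, heat minus control, of each tested member of 24 gene lists in the mammary gland, with red points past an adjusted p of 0.05 (limma), open points not past it and a bar at the list median. Red points lie furthest right in the chaperone and glucocorticoid rows, while the caseins sit between -0.08 and 0.05.

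Marker genes described the cells in the samples. For scale, 5.31% of all tested genes passed. None of 12 tested T cell and 7 tested B cell markers passed (0 and 1 at an unadjusted p under 0.05), although their medians were 0.99 and 1.03, and both were near 0 (-0.02 and 0.02) in the 11 libraries. Lck, a T cell kinase, had 0.102, 6.33 and 22.2 FPKM in heat libraries against 0.0621, 0.320 and 11.8 FPKM in control libraries. Of the macrophage markers, with summed levels of 194 to 541 FPKM after heat and 169 to 372 FPKM in controls, Cd163 alone rose, by 0.77. In the 11 lymphocyte-low libraries those sums were 194 to 261 FPKM after heat and 169 to 288 FPKM in controls. Lyve1, a marker of lymphatic vessels, rose by 1.24 ± 0.23 (adjusted p = 0.00641), with 1.92, 4.17 and 8.32 FPKM against 0.703, 1.19 and 2.64 FPKM, and by 0.74 in the 11 libraries. Among 12 tested fat cell markers Pck1 alone passed, with a change of 1.26 ± 0.30 (adjusted p = 0.0241), and Adipoq changed by 0.35. The summed fat cell markers were 863 to 1424 FPKM in heat libraries and 619 to 1090 FPKM in control libraries. Of 9 tested markers of milk-secreting epithelium none passed, 4 had an unadjusted p under 0.05, and the median change was -0.17. Their summed level was 1046 to 1682 FPKM in heat libraries and 1447 to 1907 FPKM in control libraries. In the 11 lymphocyte-low libraries it was 1466 to 1682 FPKM after heat and 1591 to 1907 FPKM in controls. Markers of myoepithelium, endothelium, fibroblasts, plasma cells and nerve sheath had none past the limma threshold, with 0, 2, 1, 1 and 2 at an unadjusted p under 0.05. Muscle was nearly absent, with summed markers of 0.501 to 3.40 FPKM after heat and 0.299 to 3.68 FPKM in controls, and so was brown fat, with Ucp1 at 0 in all heat libraries and at most 0.0785 FPKM in control libraries.

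**Figure D4:**
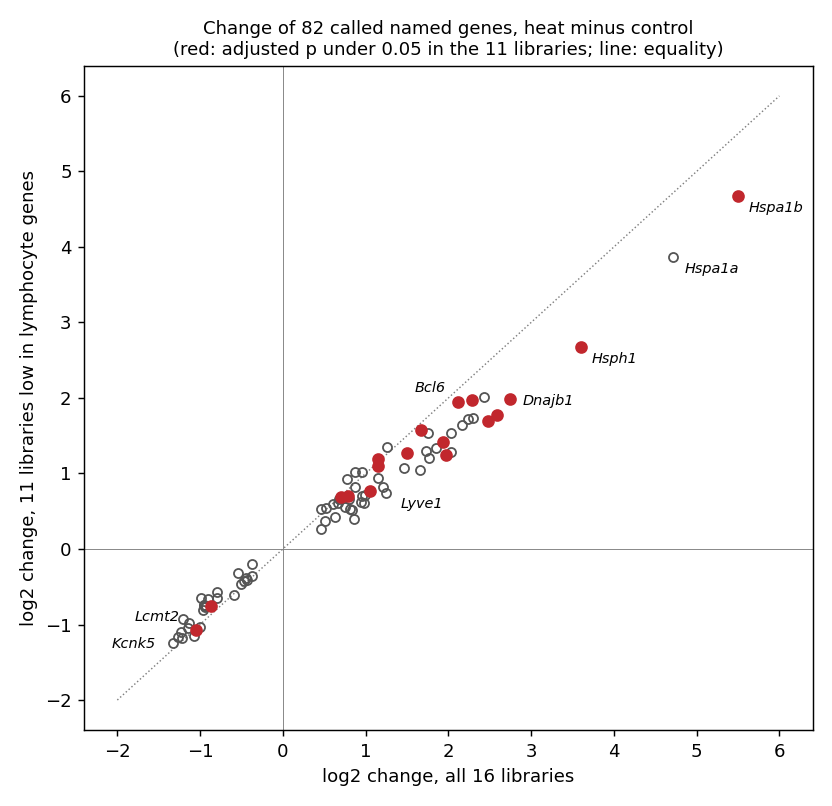
Log2 change, heat minus control, of the 82 named genes past the threshold, in all 16 libraries (horizontal) and in the 11 libraries low in lymphocyte genes (vertical), with red points past an adjusted p of 0.05 in the 11 libraries and a line of equality. Chaperones such as Hsph1 (3.61 and 2.68) lie below the line, while Lcmt2 (-1.05 and -1.08) lies close to it.

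Whether genes varied together among heat libraries was tested for Hspa1b against 7 genes. Hsph1 followed it, with Pearson's r = 0.91 (exact permutation p = 0.00117, adjusted over 7 relations 0.00816) and Spearman's rho = 0.86 (exact permutation p = 0.0107, adjusted 0.075) over 8 libraries. Without the 2 libraries farthest from the Hspa1b median, heat 1 and 3, r was 0.68. Without heat library 3 alone r was 0.787 and no longer passed (adjusted exact permutation p = 0.271). Per2 gave r = 0.73, but -0.05 without heat library 3, so that value rests on 1 library. The other relations did not pass: Ddit4 had r = 0.60, Tsc22d3 0.48, Lck 0.47, Cirbp -0.29 and Csn2 -0.01, and their Spearman's rho were 0.45, 0.40, 0.12, -0.43 and 0.07 (exact permutation p after adjustment 0.269 to 0.986 for r and 0.458 to 0.882 for rho).

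The heat change of the gland was also set against the mean heat change of pituitary and hypothalamus over the same 12587 genes, in 1 fit of all 48 libraries. It differed in 617 genes (4.9%), higher in the gland for 265 (2.11%) and lower for 352 (2.8%). That count was 289 without the 5 lymphocyte-rich libraries, 1121 with a replicate block, and 1265 where the fit held a term that sets libraries 1 to 3 apart. The labels do not say whether libraries of the tissues with the same number come from the same dam. Taken alone, pituitary had 431 calls (3.42%) and hypothalamus 122 (0.969%) on these genes. Of the 668 genes called in the gland, 133 were also called in pituitary, 131 of them in the same direction, and 56 in hypothalamus, all in the same direction. The glucocorticoid list of 19 genes had 6 higher calls in the gland, 4 in pituitary and 3 in hypothalamus, with medians of 0.42, 0.25 and 0.35. The 24 chaperone genes called in the gland had a median change of 1.48 there, 1.23 in pituitary and 0.44 in hypothalamus. Zfp36l2 changed by 2.17 in the gland, -0.19 in pituitary and 0.15 in hypothalamus, a difference of 2.19 ± 0.29 (adjusted p = 1.08e-06). Tsc22d3 changed by 2.29, 0.46 and 0.38 (difference 1.87 ± 0.22, adjusted p = 1.28e-07), and Bcl6 by 2.12, 0.56 and 0.34 (difference 1.66 ± 0.17, adjusted p = 3.88e-09). Differences above 1.7 were also found for Ddit4 (1.92), Spsb1 (1.88), Rasd1 (1.87), a steroid-induced small GTPase, and Txnip (1.80). Hsph1 differed by 2.08 ± 0.40 (adjusted p = 0.000795), with 3.61 in the gland, 2.30 in pituitary and 0.74 in hypothalamus. For Hspa1b the changes were 5.50, 5.61 and 2.71 and the difference, 1.34 ± 0.58, did not pass (adjusted p = 0.191). Hspb1 had 2.48, 2.92 and 1.93, a difference of 0.06 ± 0.51 (adjusted p = 0.982). Falls that differed included Kcnk5, with -1.33 in the gland, 0.33 in pituitary and 0.13 in hypothalamus (difference -1.56 ± 0.17, adjusted p = 2.72e-08), and Tlr2 (difference -1.21). The median spread within groups was 0.253 log2 units in the gland, 0.196 in pituitary and 0.169 in hypothalamus, and the fit pools it. Cd209b, a lectin of lymph node macrophages, differed by 1.82 ± 0.47 (adjusted p = 0.016) but did not pass within the gland (adjusted p = 0.109). Among control mammary libraries it had 15.3 FPKM in lymphocyte-rich library 5 and 0.522 to 1.35 FPKM in the others. The part of lymphocyte content in its difference was not tested.

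**Figure D5:**
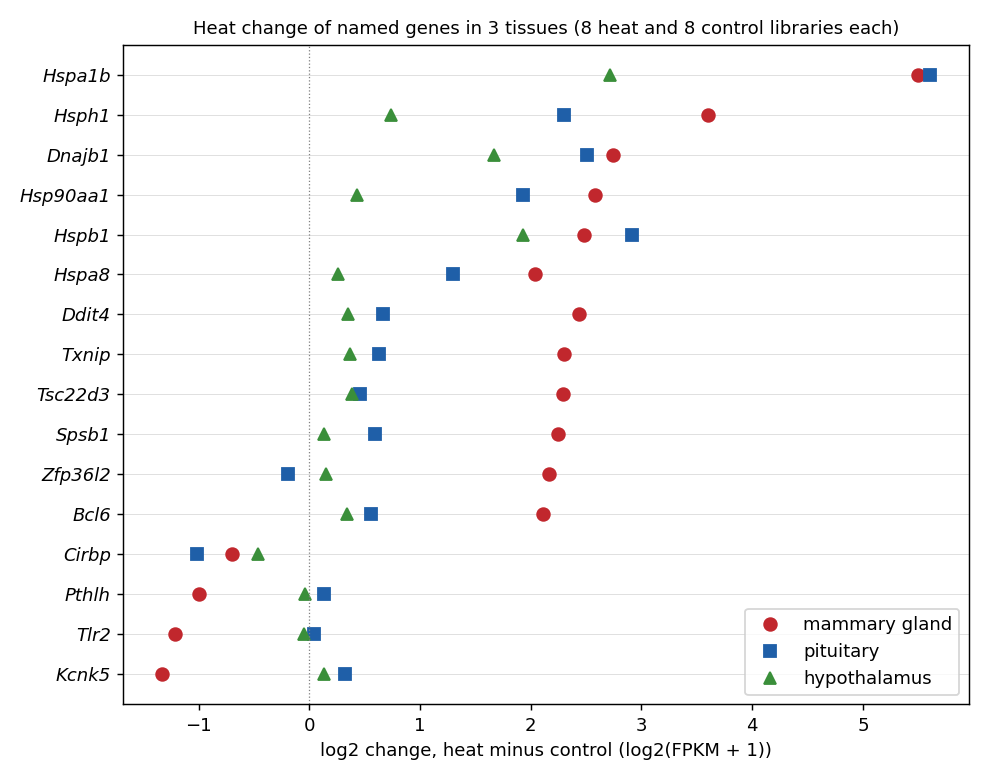
Log2 change, heat minus control, of named genes in mammary gland (red circles), pituitary (blue squares) and hypothalamus (green triangles), each from 8 heat and 8 control libraries. Hspa1b lies at 5.50 in the gland and 5.61 in pituitary, whereas Tsc22d3, Bcl6 and Zfp36l2 lie above 2 in the gland and below 0.6 elsewhere.

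Leaving out 1 library at a time kept 367 of the 668 calls in all 16 repeats. Of the 82 named genes past the threshold, 64 kept their call in every repeat. The 18 others were lost without heat library 4 in 15 cases and without heat library 5 in 12, and 3 to 11 were lost without each other library. Hmox1 was lost without heat library 4 (adjusted p = 0.0542), Ogfrl1 without heat library 4 or 5 (at most 0.0544) and C2cd4b without control library 7 (0.0507). Cd163 (highest adjusted p 0.0605) and Slc38a7 (0.0582) were each lost in 4 repeats, Cct7 (0.0651) and Cmtm2a (0.0573) in 5, Zfp36l1 (0.0623) in 6, and Per1 (0.0715), Srsf3 (0.0702) and Itprid1 (0.063) in 8. Timp3 (0.085), Slc1a5 (0.0733) and Srxn1 (0.0961) were lost in 11 of 16, and Rasd1 (0.0847), Clk4 (0.0997), Mvk (0.0808) and Slc34a2 (0.0772) in 12. Among genes counted only within their lists, Ppid was lost in 8 repeats and Hnrnpc in 13 (adjusted p up to 0.0633 and 0.0713). In 74 of the 82 genes all 8 heat libraries lay on 1 side of the control median, and in Per2, Pck1, Hspd1, Fos, Pfkfb3, Cct7, Ogfrl1 and Mvk 6 or 7 did. The 82 were chosen for passing the threshold in these same libraries. That count therefore describes them and is no separate evidence, and no share over all genes is given.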

How the data were processed

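RNA of mammary gland, pituitary and hypothalamus was sequenced, 8 libraries per treatment and tissue, grouped by their titles, which call them biological replicates. The authors deposited FPKM per gene and library. The submitters' processing notes name HISAT2 2.0.5, featureCounts 1.5.0-p3, DESeq2 1.16.1 and build mm9, without roles; strand and multi-mapping are not given in the sources used here. Gene lengths of GENCODE M21 turned 94.7 to 95.7% of mammary values under 50 fragments into whole fragments (within 0.02), which gave the depths. No library pair was identical.

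Each mammary library was rescaled by a median-of-ratios factor (0.976 to 1.02 over 16 libraries), and printed levels are these scaled FPKM, as lowest, median and highest library. Log2(FPKM + 1) was fitted with limma 3.58.1 (R 4.3.3, trend, 2-sided, Benjamini-Hochberg, threshold 0.05), a procedure tested on simulated data. Exact permutation tests, 2-sided, ran over 12870 splits or all pairings in Python 3.11.15 with scipy 1.17.1. A floor of 3 fragments covers counting error only. Members and lists were chosen with earlier results of these data known. Genes were named by rule: the 15 largest rises and falls and the 10 smallest adjusted p (leaving out genes without a symbol, predicted genes, pseudogenes, small RNA genes and immunoglobulin or receptor segments), up to 3 called members of each list or else the 1 of smallest adjusted p, a set of heat shock, milk, hormone and clock genes, and the 10 largest tissue differences. Further list members were named where their count was small, after their values were seen. Alternatives were other scalings, pseudocounts of 0.1 and 0.5, filters, weights and priors, an exact Wilcoxon test, limma-voom on recovered fragments, a replicate block, terms for library number and lymphocyte level, subsets, and single libraries left out. Results of some genes picked by the rule are not reported here.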

Additional observations from a re-analysis of the deposited data

Results flagged for a closer look

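In 266 groups of 8 libraries checked over the named genes, 18 held a library apart from the other 7, and chance flags about 1 in 20 groups. Control library 6 was high in chaperones, with Hsp90aa1 at 110 FPKM (the others 52.8 to 72.9), Hspb1 at 63.9 FPKM (22.5 to 36.3) and Hspa8 at 175 FPKM (64.4 to 97.1). Control library 5, the lymphocyte-rich control, had Lck at 11.8 FPKM, Cd79a at 17.9 FPKM, Blk at 2.14 FPKM and Cd209b at 15.3 FPKM, all above the other controls. Its Slc39a1, a zinc transporter, was low at 41.7 FPKM (the others 46.7 to 51.7).

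Heat library 3 was low in Per2 (3.97 FPKM, the others 14.4 to 24.6) and Herpud1 (13.9 FPKM, the others 27.5 to 42.8). Heat library 1 was low in Fos (6.21 FPKM, the others 10.9 to 17.3) and high in mt-Nd5 (1189 FPKM, the others 578 to 771). Single values apart were Rbm14 in heat library 8 (8.76 FPKM), Mbp in heat library 6 (15.2 FPKM), Cmtm2a in heat library 7 (2.42 FPKM), Cmtm2a in control library 4 (0.0849 FPKM), S100a8, a neutrophil gene, in control library 2 (30.4 FPKM) and Gpt2 in control library 8 (58.6 FPKM).

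The heat change of the gland exceeded the mean of pituitary and hypothalamus by the limma test of the difference in the following named genes. The differences were 2.19 for Zfp36l2, 2.08 for Hsph1, 1.92 for Ddit4, 1.88 for Spsb1, 1.87 for Tsc22d3, 1.87 for Rasd1, 1.82 for Cd209b, 1.80 for Txnip and 1.66 for Bcl6 (log2 units, adjusted p of 3.88e-09 to 0.016). Of these genes, Cd209b did not pass within the gland alone and was high in the lymphocyte-rich control library. Why these libraries and tissues differ was not tested.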

How the results depend on the processing

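The count of 668 was 411 with no filter (of 31914 genes), 364 at a mean of at least 5 FPKM (of 6535), 104 at an absolute change of at least 1, 2314 in a fit of all 48 libraries, 365 in libraries numbered 4 to 8 and 0 in those numbered 1 to 3 by limma (1569 at an unadjusted p under 0.05). It was 296 with the lymphocyte covariate, 389 with that and a term for libraries 1 to 3, 38 without the 5 T cell-rich libraries, and 412 (without heat library 4) to 751 (without heat library 7) with 1 library left out. The other settings gave 539 to 919. No result past its threshold, in all libraries or in the alternative, changed sign, but values that had not passed did. The casein difference was 0.14 percentage points in libraries 4 to 8, -4.48 in libraries 1 to 3, -0.213 without the 5 libraries, and -2.70 to -0.84 with 1 library left out. That of caseins with whey proteins was 0.164 without the 5 libraries, -3.99 in libraries 1 to 3, and -2.67 to -1.01 with 1 library left out. The mitochondrial difference ran from -0.529 to -0.248 with 1 library left out and passed without heat library 1. It was -0.0436 in libraries 1 to 3, -0.0752 without the 5 libraries and -0.933 with caseins and whey left out of the denominator. The tissue difference count of 617 was 1121 with the replicate block, 289 without the 5 libraries, 1265 with a term for libraries 1 to 3, and 449 to 916 with 1 library left out. With 1 heat library left out, r with Hspa1b ran from 0.787 to 0.945 for Hsph1, -0.0486 to 0.858 for Per2 and -0.198 to 0.34 for Csn2. The causes were not tested. Of the 82 named genes that passed, 54 did so with the covariate, 18 in the 11 libraries, 61 by the Wilcoxon test and 81 by limma-voom. Same-numbered heat and control libraries mostly did not deviate together (correlations of -0.1 to 0.336, own number best in 1 of 8). That 1 was number 5, lymphocyte-rich in both groups. These values gave no sign of pairs, but they do not show that library number is without effect. A term for libraries numbered 1 to 3 gave 919 calls. With the replicate block 634 genes were called, 490 of them shared. Depth limits what can be said of genes under about 0.5 FPKM, where 3 fragments are the floor.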
